A study of Mus musculus with 7 samples.

Results

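The open chromatin regions (OCRs) around Myb and its 2 paralogs, Mybl1 and Mybl2, were described in HPC7 cells. They were chosen by position alone, as every ATAC-seq peak that overlapped the Myb gene body or the 150 kb on either side of it, or the gene bodies of Mybl1 and Mybl2 and the 50 kb on either side. After peaks of different libraries that overlapped were merged, these windows held 117 of the 144931 OCRs of the whole data set, with 91 around Myb, 11 around Mybl1 and 15 around Mybl2. All coordinates are those of mm10 (GRCm38), and genes and transcript starts are those of GENCODE M21. ATAC-seq uses a transposase that cuts and tags DNA where it is free of nucleosomes, so a peak marks accessible chromatin and reports neither a bound factor nor transcription.

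HPC7 is an immortalized mouse hematopoietic progenitor line, and here it was grown in medium with mouse stem cell factor and bovine calf serum. The 7 libraries were bulk ATAC-seq of this line, labelled as 1 condition, each from a culture batch of its own, and were numbered HPC7-1, HPC7-2 and HPC7-4 to HPC7-8. No treated, mutant or control group was labelled, and the study made these libraries to obtain a deep OCR profile of the line against which single-nucleus data could be set. The libraries were taken as replicates of 1 line in 1 condition, as labelled, so p-values measure the spread between culture batches of that line, and more accessible cells cannot be told apart from more accessibility per cell.

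MYB, also called c-MYB, is a transcription factor of immature blood cells that definitive hematopoiesis requires and that is shut down as most blood lineages mature. Its gene is known for enhancers at long distance, in the gap toward Hbs1l, where complexes of GATA1, TAL1 and LDB1 have been described in erythroid cells, and for a pause of transcription in its first intron. MYBL1 (A-MYB) drives genes of male meiosis, and MYBL2 (B-MYB) works with the MuvB complex on genes of the late cell cycle in dividing cells.

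The lists held between 84593 peaks in HPC7-6 and 132852 in HPC7-1. The background, recovered from the fold enrichments as reads expected at a summit, was 20.4 reads in HPC7-1 and between 4.44 and 7.45 in the other 6 libraries, so HPC7-1 was the deepest and could show weaker peaks (lowest fold enrichment 1.68, against 2.13 to 2.44). Within the lists, the peak names of 3 libraries (HPC7-1, HPC7-2, HPC7-4) carry the letters VD and those of the remaining 4 carry EtOH. The labels do not say what the letters stand for, and they could mark a treatment, in which case the SDs and p-values over 7 libraries would also hold its effect. No groups were formed from them, but values of both sets are given beside the main results. The labelled cell type was checked on promoters, taken as 3 kb on either side of any transcript start. All 10 progenitor genes listed (such as Kit, Cd34, Gata2 and Tal1) had a promoter OCR in all 7 libraries, against 60.8% of the 21938 protein-coding genes. The same held for 0 of 4 T cell genes, 1 of 3 hepatocyte genes (Apoa2), 2 of 3 muscle genes, 1 of 3 neuronal genes and 0 of 3 epithelial genes.

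The sequences under the peaks that the results turn on are shown first. Each is the 100 bases on either side of the mean summit, on the plus strand of chromosome 10 of GRCm38, and capitals mark GATAA or its reverse complement TTATC, the letters GATA factors recognize, and the E-box CANNTG, which TAL1 and other basic helix-loop-helix factors recognize. OCRs are named by the distance of their mean summit from the Myb start, with plus signs for the direction of transcription (through Myb toward Ahi1) and minus signs for the Hbs1l side. The +106.0 kb and −67.8 kb OCRs are shown because they were the highest of the window, +77.3 kb because it was the highest between Ahi1 and Myb, and the other 3 because they were, after −67.8 kb, the highest between Myb and Hbs1l.
+106.0 kb, chr10:21054856-21055056: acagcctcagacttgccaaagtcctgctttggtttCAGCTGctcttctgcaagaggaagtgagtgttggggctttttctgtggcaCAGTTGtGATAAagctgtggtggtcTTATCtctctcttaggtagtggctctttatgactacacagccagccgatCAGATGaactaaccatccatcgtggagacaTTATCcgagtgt
+77.3 kb, chr10:21083613-21083813: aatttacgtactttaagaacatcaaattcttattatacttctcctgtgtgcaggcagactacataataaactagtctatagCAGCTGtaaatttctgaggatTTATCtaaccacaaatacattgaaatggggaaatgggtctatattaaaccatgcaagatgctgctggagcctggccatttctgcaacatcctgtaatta
−35.8 kb, chr10:21196696-21196896: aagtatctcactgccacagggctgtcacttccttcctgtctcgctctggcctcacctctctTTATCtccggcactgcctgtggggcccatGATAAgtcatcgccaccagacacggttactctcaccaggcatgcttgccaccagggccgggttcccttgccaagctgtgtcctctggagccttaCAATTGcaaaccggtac
−60.6 kb, chr10:21221470-21221670: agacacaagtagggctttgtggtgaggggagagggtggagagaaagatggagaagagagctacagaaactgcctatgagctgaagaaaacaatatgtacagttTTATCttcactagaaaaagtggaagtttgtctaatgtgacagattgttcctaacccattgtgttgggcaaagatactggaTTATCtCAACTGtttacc
−67.8 kb, chr10:21228636-21228836: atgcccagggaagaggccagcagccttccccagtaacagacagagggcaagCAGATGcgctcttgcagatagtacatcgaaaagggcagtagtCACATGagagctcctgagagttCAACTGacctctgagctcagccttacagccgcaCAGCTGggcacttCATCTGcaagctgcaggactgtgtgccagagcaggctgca
−81.1 kb, chr10:21241940-21242140: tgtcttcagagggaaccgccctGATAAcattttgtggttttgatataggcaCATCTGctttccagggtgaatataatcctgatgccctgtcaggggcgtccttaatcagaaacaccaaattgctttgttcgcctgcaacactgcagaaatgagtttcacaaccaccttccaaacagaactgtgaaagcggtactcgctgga

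The 250 bases before the RefSeq start of Myb (chr10:21160985-21161234, minus strand) and of Mybl2 (chr2:163054385-163054634, plus strand) are shown from RefSeq on GRCm38.p6, since the promoters were the tallest OCRs of their genes. Capitals mark TTGGCGG, the core that E2F factors of the cell cycle recognize. The table of promoters used had an entry for 2 of the 3 genes, and Mybl1 is named only.
Myb, 250 bases before the start: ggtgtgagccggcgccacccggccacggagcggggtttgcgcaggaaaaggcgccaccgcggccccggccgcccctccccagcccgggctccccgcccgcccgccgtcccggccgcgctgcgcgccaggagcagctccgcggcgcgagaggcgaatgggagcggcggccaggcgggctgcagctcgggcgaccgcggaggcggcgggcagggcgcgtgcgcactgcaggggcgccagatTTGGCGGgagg
Mybl2, 250 bases before the start: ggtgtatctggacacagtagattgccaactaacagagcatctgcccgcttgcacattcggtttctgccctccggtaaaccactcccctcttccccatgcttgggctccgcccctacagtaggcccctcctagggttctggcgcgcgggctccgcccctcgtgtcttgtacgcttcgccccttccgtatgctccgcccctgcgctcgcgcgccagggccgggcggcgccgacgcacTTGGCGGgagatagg

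Both promoters held the E2F letters once and close to the start, 11 to 5 bases before it in Myb and 15 to 9 bases before it in Mybl2. These letters were chosen after the sequences were seen, and 2.17% of 32851 RefSeq promoters of the same length held them on either strand. The Myb stretch was GC-rich, with 81.2% G or C and 40 CpG dinucleotides, against medians of 52.4% and 6 over all promoters. The Mybl2 stretch had 65.6% and 23. None of the other 6 motifs searched, among them the MYB letters AACNG, was found in the 250 bases of Myb, whereas Mybl2 held AACNG 2 times. Over all promoters 74.2% held AACNG.

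At the promoters, all 3 genes had an OCR in every library, and Myb had the lowest of the 3. Intensity was read as fold enrichment, the reads at the summit of the highest promoter peak over the library's background, so no gene length enters it. The Myb promoter reached a lowest value of 51.2 in HPC7-6, a median of 81.2 and a highest value of 98.0 in HPC7-8 (mean 80.3 ± 16.6, SD, n = 7). Libraries with VD names spanned 70.6 to 94.7 and those with EtOH names 51.2 to 98.0, so both sets overlapped. The Mybl2 promoter ranged from 99.3 in HPC7-6 through a median of 146 to 182 in HPC7-5 (144 ± 26.9). The Mybl1 promoter ranged from 130 in HPC7-6 through a median of 187 to 207 in HPC7-4 (173 ± 27.2). HPC7-6 was thus the lowest library for all 3 genes, and every value of Mybl1 and Mybl2 lay above every value of Myb.

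**Figure D1:**
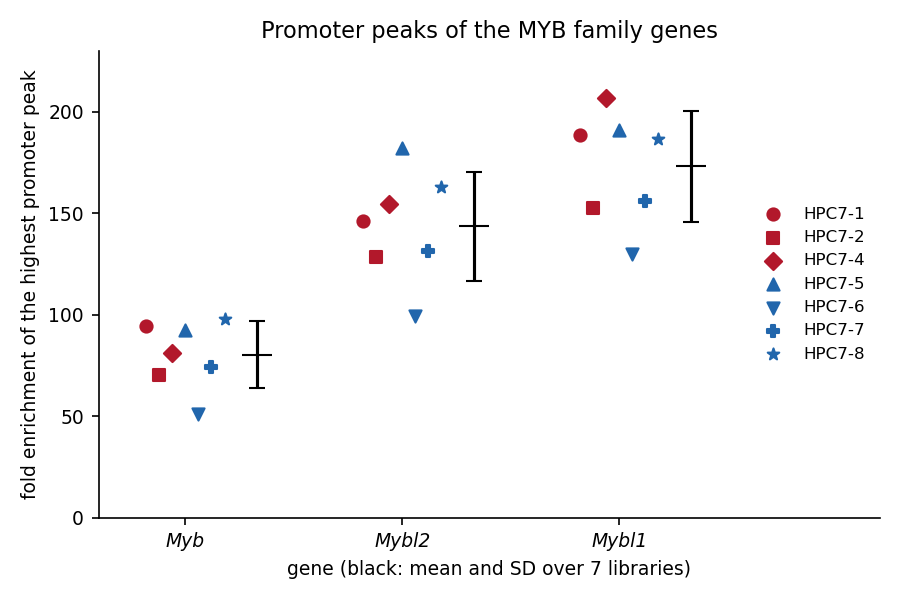
Fold enrichment of the highest promoter peak of Myb, Mybl2 and Mybl1 in each library, on a linear axis from 0. Points are single libraries (red for peak names with VD, blue for EtOH), and the black mark and bar are the mean and SD over 7 libraries. The Myb values, 51.2 to 98.0, lie below those of both paralogs.

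Within a library, the Myb promoter was lower than that of Mybl1, with a log2 ratio of Myb to Mybl1 of −1.12 ± 0.166 (SD, n = 7), and lower than that of Mybl2, with a log2 ratio of −0.84 ± 0.129. The log2 ratio of Mybl2 to Mybl1 was −0.28 ± 0.125. Each of these 3 differences had the same sign in 7 of 7 libraries, and each had an adjusted p of 0.0156 by the exact two-sided sign-flip permutation test over libraries with Benjamini-Hochberg adjustment over the 3 pairs, which is the smallest p that 7 libraries allow. The ratio of Myb to Mybl1 averaged −1.15 over the 3 libraries with VD names and −1.10 over the 4 with EtOH names, that of Myb to Mybl2 −0.81 and −0.87, and that of Mybl2 to Mybl1 −0.34 and −0.23. Among the peaks of their own library the promoters stood at percentiles of 93.4 ± 1.53 (Myb), 98.1 ± 0.442 (Mybl2) and 99.0 ± 0.337 (Mybl1). Against the promoters of the 13341 protein-coding genes with an OCR in all libraries, Myb was near the middle (52.2nd percentile, with a median of 76.9 over the genes), and Mybl2 and Mybl1 were at the 84.1st and 91.6th.

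The Myb promoter OCR was set apart by its width more than by its height. It ran from chr10:21157747 to chr10:21162249 (merged width 4503 bp), from 1265 bp before the start of Myb to 3237 bp into the gene, over 1 exon and part of the first intron. Each library called it as 1 unbroken peak, 3855 to 4503 bp wide (4077 ± 215 bp). This was the 97.1st percentile among 10309 genes with a peak over their start in all libraries, whose median width was 1805 bp. The peak over the start of Mybl1 was 1857 bp wide on average (52.7th percentile) and that of Mybl2 2391 bp (76.5th). The summit at Myb lay 9 bp inside the gene and moved by 57 bp over the libraries, that of Mybl2 lay 122 bp before the start and moved by 17 bp, and that of Mybl1 lay 343 bp before the start and moved by 155 bp.

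Around Myb, the window chr10:20974935-21310984 held 91 OCRs, of which 33 (36.3%, Wilson 95% interval 27.1% to 46.5%, counting error only) had a peak in all 7 libraries. Over the whole data set 46.2% of OCRs did, which lies just inside the upper bound of that interval, and the share at Myb is not read as a difference. A further 42 OCRs had peaks in 2 to 6 libraries and 16 in 1 library, 10 of them in HPC7-1, 5 in HPC7-8 and 1 in HPC7-4. Single libraries covered between 39 (HPC7-6) and 81 (HPC7-1) of the OCRs. Support went with intensity, as it did over all OCRs. The median percentile was 12.1 for Myb OCRs in 1 library, 22.4 for those in 2 to 6 and 65.0 for those in all libraries, against 9.47, 20.7 and 66.0 over the data set.

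**Figure D2:**
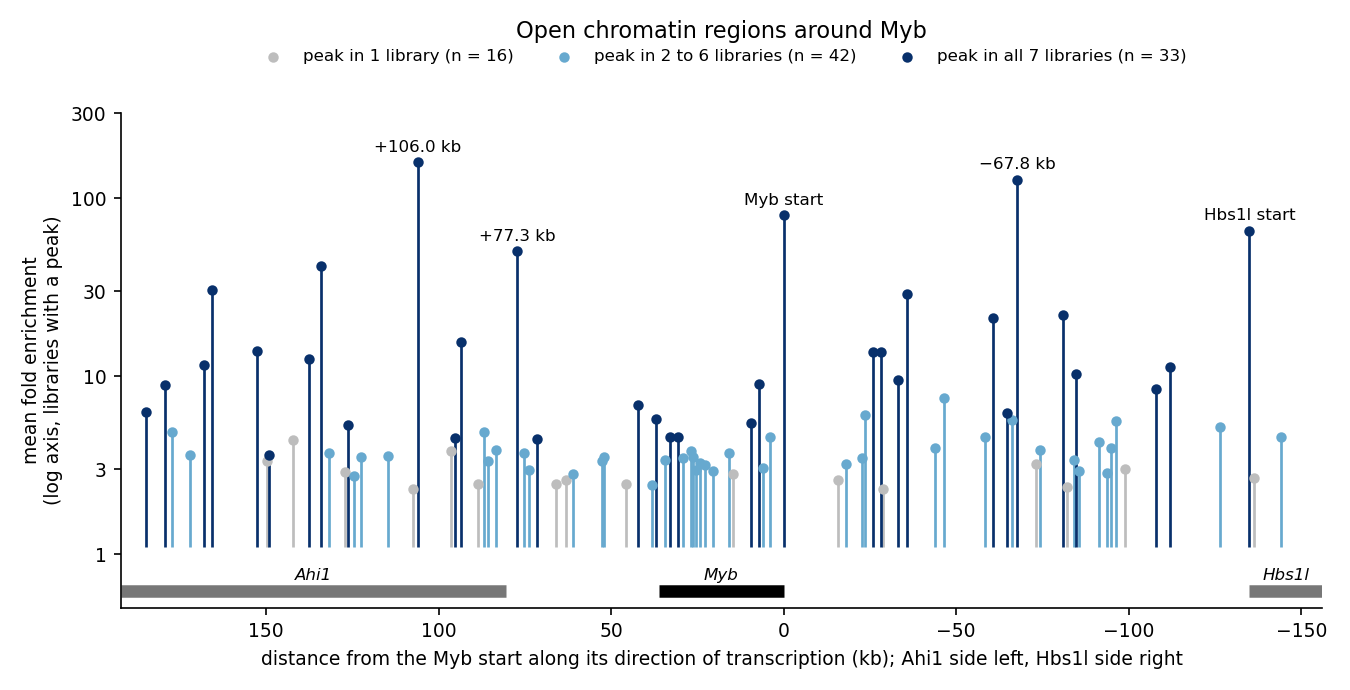
OCRs of the Myb window by the distance of their mean summit from the Myb start (kb, Ahi1 side left and Hbs1l side right) and their mean fold enrichment over the libraries with a peak (log axis). Colour gives the number of libraries with a peak, and bars along the bottom are gene bodies. The highest stems are +106.0 kb (159) and −67.8 kb (127), and the Myb gene body holds many low OCRs that not all libraries share.

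The highest OCR of the window was not a promoter. The +106.0 kb OCR (chr10:21054082-21057202), 3121 bp wide with its summit in an intron of Ahi1, a gene of the primary cilium, had fold enrichments from 123 in HPC7-6 through a median of 161 to 198 in HPC7-5 (159 ± 27.8). Its percentile within a library was 98.6 ± 0.215, and of the 40438 OCRs outside promoters found in all libraries 117 had a higher mean. The printed stretch reaches into a coding exon of Ahi1 (chr10:21054981-21055143), and the summit lies outside it.

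In the gap toward Hbs1l, the −67.8 kb OCR (chr10:21227926-21229174), in an intron of the long noncoding RNA gene Gm33728, had fold enrichments from 88.2 in HPC7-6 through a median of 135 to 153 in HPC7-5 (127 ± 26.0, percentile 97.3 ± 0.784), and 272 of the 40438 were higher. Libraries with VD names spanned 135 to 150 and those with EtOH names 88.2 to 153. At +106.0 kb the spans were 149 to 180 and 123 to 198. Values of the smaller set lay inside the range of the larger one at both OCRs.

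Both OCRs were higher than the Myb promoter in 7 of 7 libraries, by 0.99 ± 0.200 on the log2 scale at +106.0 kb and by 0.66 ± 0.214 at −67.8 kb. Such an OCR outside promoters, within 150 kb of the gene and higher than its promoter in every library, was found for 29.4% of the 13341 genes with a promoter OCR in all libraries, so Myb shares this with many genes. In the order of levels, +106.0 kb stood above −67.8 kb in 7 of 7 libraries (by 0.33 ± 0.121 on the log2 scale), and the Myb promoter stood above the Hbs1l promoter in 7 of 7 (by 0.29 ± 0.164). The Hbs1l promoter at −135.0 kb had a mean fold enrichment of 65.8 ± 14.3. Hbs1l encodes a factor that rescues stalled ribosomes.

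Below these came +77.3 kb (chr10:21083021-21084552), intergenic between Ahi1 and Myb, with 38.8 in HPC7-2 as its lowest value, a median of 49.2 and 63.8 in HPC7-8 as its highest (50.3 ± 9.77). It did not separate from the Hbs1l promoter, which was higher in 6 of 7 libraries. In Ahi1 introns followed, +134.0 kb at 41.6 ± 8.25 and +165.5 kb at 30.5 ± 5.97. The intergenic OCR at −35.8 kb (chr10:21196112-21197202) had 29.1 ± 6.76, ranging from 16.6 in HPC7-6 to 36.8 in HPC7-8. It could not be ordered against +165.5 kb, which was higher in 4 of 7 libraries.

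In the gap, −81.1 kb (chr10:21241618-21242354) reached 22.0 ± 4.64 and −60.6 kb (chr10:21221110-21222118) reached 21.2 ± 4.74, both in Gm33728 introns. These neighbours were not ordered either, as the former was higher in 5 of 7 libraries. The last of the 10 highest, +152.6 kb (13.9 ± 2.73) and +137.5 kb (12.5 ± 3.04), lay in Ahi1 introns and exchanged places in 2 of 7 libraries. The other 15 OCRs of the window found in all libraries outside promoters had mean fold enrichments from 3.63 to 11.5. Over all 25 the median of the mean percentiles was 63.1, against 60.5 over the 40438 of the data set, so the group as a whole was near the usual level and a few members stood far above it.

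**Figure D3:**
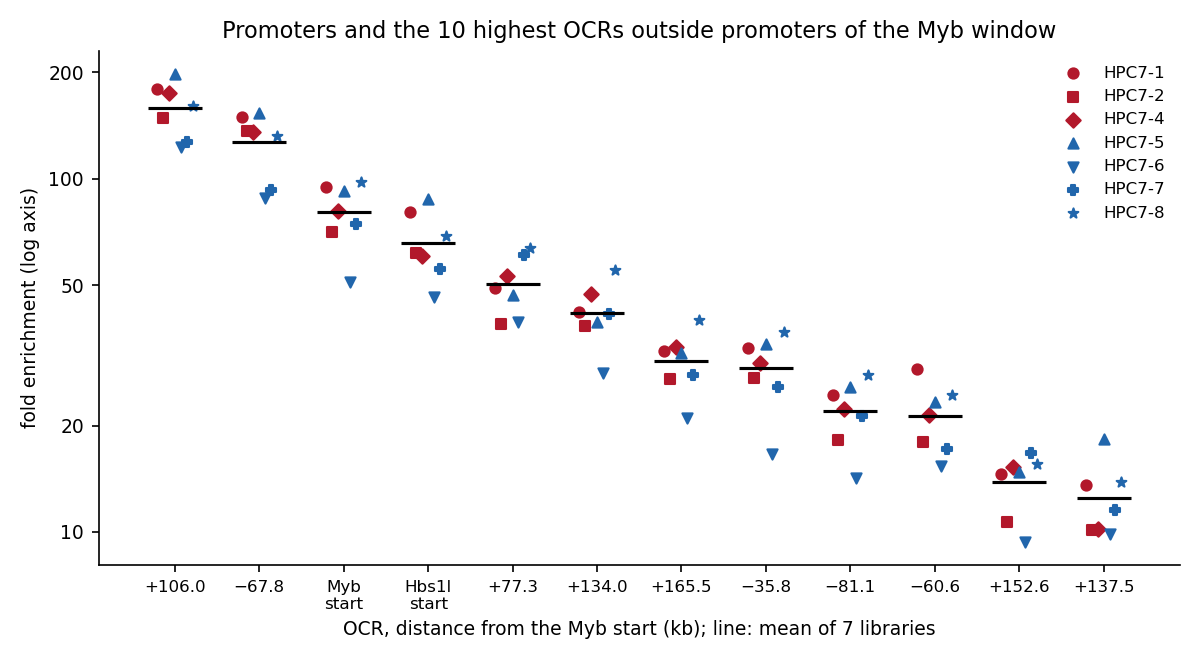
Fold enrichment (log axis) of the 10 highest OCRs outside promoters in the Myb window and of the Myb and Hbs1l promoters, in each library (red for VD names, blue for EtOH), with the mean as a line. The +106.0 kb and −67.8 kb OCRs stand above the Myb start in each library, and HPC7-6 is the lowest or next to lowest library at each of them.

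The positions of the highest OCRs were kept between libraries. The summits of the 10 highest spread over 21 to 131 bp across the 7 libraries (median 39.5 bp), and those of the other 15 over 34 to 639 bp (median 139 bp).

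Of the 25 OCRs, 13 (52.0%) held GATAA or TTATC within 100 bases of the summit and 22 (88.0%) held CANNTG, with both in 13 (52.0%). Of the 40438 OCRs outside promoters in all libraries 31.6%, 70.3% and 22.1% did, and of all 66979 OCRs in all libraries, promoters included, 26.8%, 66.1% and 18.5% did. GATAA was found in 9 of the 10 highest OCRs, in 3 places at +106.0 kb and in 2 each at −35.8 kb and −60.6 kb. These 9 made up most of the 13. The 10 were picked by intensity, and the share among equally high OCRs of the data set was not computed. The centre of the nearest match lay 4 bases from the mean summit at +77.3 kb, 5 at −60.6 kb, 6 at +106.0 kb and 8 at −35.8 kb, with 15 at +134.0 kb. In the other 4 of the 9 it lay farther out, 75 bases away at +152.6 kb, 76 at −81.1 kb, 82 at +137.5 kb and 97 at +165.5 kb. The summits of single libraries spread over 24 bp at +77.3 kb, 45 bp at −35.8 kb, 60 bp at +106.0 kb and 131 bp at −60.6 kb, so the shortest distances are finer than the placing of the summit. The exception among the 10 was −67.8 kb, which held no GATAA and CANNTG in 5 places.

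The ETS letters GGAAG were in 18 of the 25 (72.0%, against 66.7% of the 40438), the RUNX letters TGTGG in 18 (72.0% against 64.5%) and the MYB letters AACNG in 19 (76.0% against 74.3%). The CTCF core consensus was in 0 of the 25, against 6.99%. Each motif was searched on both strands, AACNG and CANNTG can share bases, and a match is a description of the sequence and shows no bound factor. Of the 8 promoter OCRs that all libraries shared in the window, 0 held the CTCF consensus, against 4.53% of 26541 over the data set. With so few OCRs, neither count of 0 is read as a difference.

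The gap of 135 kb between the starts of Myb and Hbs1l held 31 OCRs, 11 of them in all libraries and 9 of those outside promoters. This made 6.67 such OCRs per 100 kb, the 97.0th percentile of the 2841 gaps of over 100 kb between neighbouring protein-coding genes (median 0.425). The highest of them, −67.8 kb, was at the 98.1st percentile of the highest OCRs of those gaps. By number, the 9 such OCRs stood lower, at the 90.1st percentile (median 1). The gap itself was short, at the 20.8th percentile of length (median 238 kb). The 2 promoter OCRs of the gap found in all libraries lay at −26.0 kb (13.7 ± 3.89) and −28.2 kb (13.7 ± 3.53), at transcript starts of the long noncoding RNA genes Gm33619 and Gm40608. Beyond the 4 named OCRs of the gap, those found in all libraries were at −33.1 kb (9.48 ± 2.25), −64.8 kb (6.19 ± 1.34), −84.8 kb (10.3 ± 2.85), −108.0 kb (8.51 ± 2.46) and −112.0 kb (11.3 ± 3.22).

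Distal peaks, taken as those with a summit over 3 kb from any transcript start, had a higher median percentile in the gap than in the data set. The median percentile in the gap was 56.2 ± 5.72 over the 7 libraries, against 45.6 ± 0.802 for all distal peaks of the same libraries. It was not ranked against that of other gaps. The difference of 10.6 ± 5.80 was above 0 in 7 of 7 libraries (exact two-sided sign-flip p = 0.0156, n = 7), from 2.23 in HPC7-1 to 19.1 in HPC7-7. It averaged 7.14 with VD names and 13.2 with EtOH names. With peaks of a −log10 q of at least 5 alone it was 7.70, above 0 in 5 of 7 libraries, and missed the threshold (exact p = 0.0625).

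The density of peaks did not hold apart the sides of Myb. The gap held 15.7 ± 4.16 peaks per 100 kb and the 150 kb after the Myb end, which hold most of Ahi1, held 18.1 ± 4.88. The difference of −2.43 ± 1.96 was negative in 7 of 7 libraries (exact two-sided sign-flip p = 0.0156, n = 7), but it was −0.867 (exact p = 0.266) with peaks of a −log10 q of at least 5, −0.285 (exact p = 0.75) with lists of equal length, and 0.857 (exact p = 0.344) when 100 kb on each side was compared. It averaged −1.23 over the libraries with VD names and −3.33 over those with EtOH names. By base pairs covered by peaks per 100 kb the gap stayed lower, with a difference of −2659 bp that was negative in 7 of 7 libraries (exact p = 0.0156). The call was thus lost under both cuts, and the side with more peaks on average changed with the stretch chosen. By OCRs, the part of Ahi1 in the window held 27 (12 in all libraries) and the stretch between Ahi1 and Myb 13 (4 in all).

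**Figure D4:**
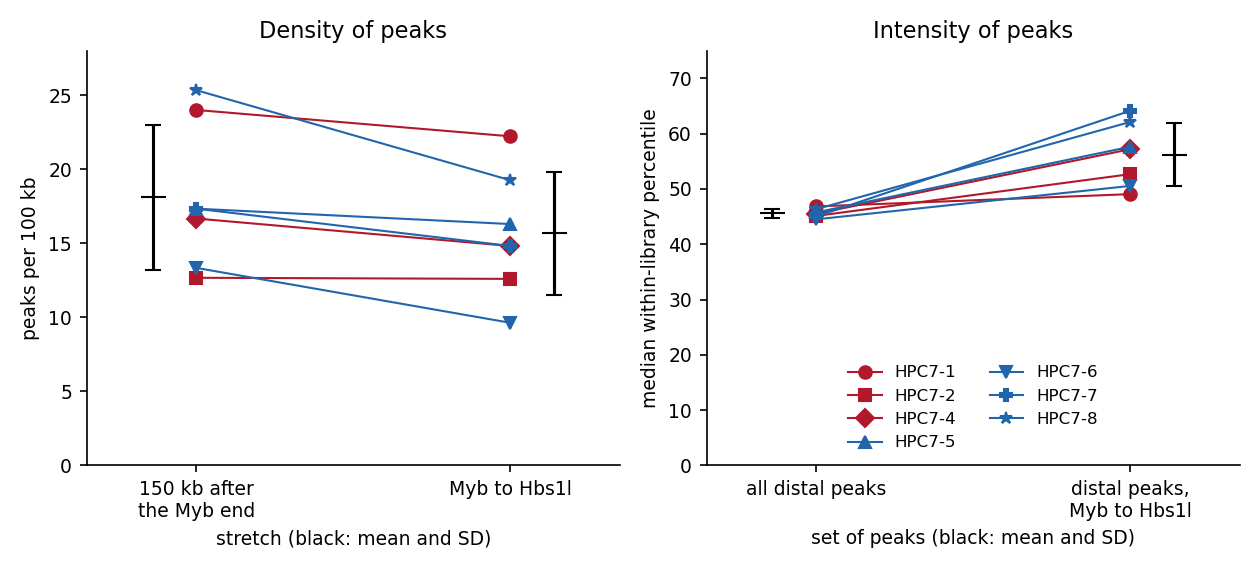
Left, peaks per 100 kb in the 150 kb after the Myb end and between Myb and Hbs1l. Right, median within-library percentile of fold enrichment of all distal peaks and of those between Myb and Hbs1l. Lines join the values of 1 library (red for VD names, blue for EtOH), and black marks are means with SD. All 7 lines fall on the left, with differences down to −6.07 peaks per 100 kb, and all 7 rise on the right.

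Within the Myb gene, OCRs were many and mostly low. The 36.05 kb of the gene held 17 OCRs, 5 of them in all libraries, and 39.5% of its bases lay in an OCR. At 4.72 OCRs per 10 kb it was at the 98.5th percentile of 14164 protein-coding genes of at least 10 kb, and by covered share at the 97.1st (medians 1.02 and 6.65%). Single libraries placed 5 (HPC7-6) to 19 (HPC7-4) peaks in the gene. Besides the promoter, the OCRs in all libraries were +7.2 kb (9.0 ± 2.42) and +9.4 kb (5.47 ± 1.54), both within 3 kb of annotated transcript starts inside Myb, and +30.7 kb (4.55 ± 0.76) and +32.9 kb (4.54 ± 0.72) in introns near the 3′ end. Just past the end, +36.9 kb had 5.74 ± 1.36 and +42.1 kb had 6.86 ± 1.99. None of these came near the promoter value of 80.3. At +7.2 kb and +9.4 kb an antisense gene, Gm26577, overlaps Myb, and ATAC-seq does not tell the strands apart.

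Set beside windows built in the same way around all 21938 protein-coding genes, the gene and 150 kb on either side, Myb was high in number of OCRs. It had 27.1 per 100 kb (96.4th percentile, median 9.72), 9.82 in all libraries (85.4th) and 7.44 in all libraries outside promoters (98.2nd, median 2.24). Mybl1 was at the 31.6th, 37.9th and 25.8th percentiles of these measures and Mybl2 at the 55.0th, 47.9th and 42.6th. The paralogs thus had the higher promoters, and Myb had the larger number of distal OCRs. These ranks are descriptions of 3 genes and carry no test.

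**Figure D5:**
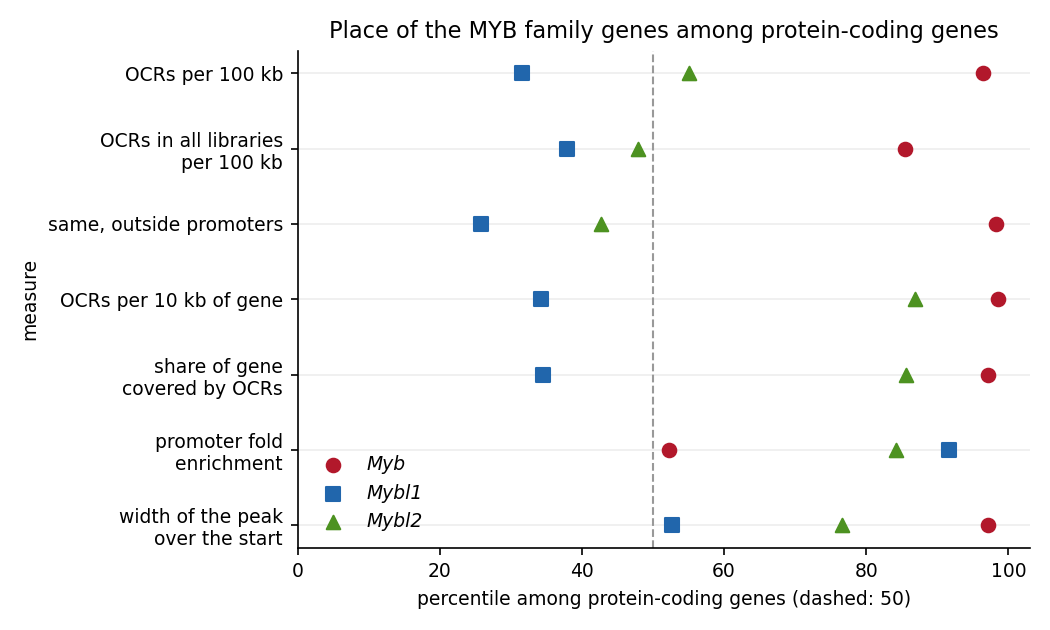
Percentile of Myb, Mybl1 and Mybl2 among protein-coding genes for 7 measures, the first 3 over the gene and 150 kb on either side. Myb is at or above the 85.4th percentile in each measure but promoter fold enrichment (52.2nd), where Mybl1 (91.6th) and Mybl2 (84.1st) are higher.

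The Mybl1 window (chr1:9617415-9750209) held 11 OCRs, 5 of them in all libraries (45.5%, against 46.2% over the data set), and all 5 were in promoters as defined here. Beside the main promoter OCR (chr1:9699497-9701642), a smaller one stood at −3.0 kb (24.3 ± 4.96) and a low one at +3.2 kb (5.58 ± 0.65) in an intron. The tallest OCR of this window, −48.3 kb (256 ± 50.8), lay at the starts of Vcpip1, a deubiquitinase gene, and of the antisense gene 1700034P13Rik, and another stood at −44.8 kb (12.7 ± 2.89) in a Vcpip1 intron. In the Mybl1 gene 3.46% of bases lay in an OCR (34.5th percentile).

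The Mybl2 window (chr2:163004687-163134688) held 15 OCRs, 6 of them in all libraries (40.0%). The promoter OCR (chr2:163053894-163056526) was the tallest. Of these, 2 lay outside promoters, +28.2 kb in a Mybl2 intron near the 3′ end (chr2:163081907-163083333, 19.7 ± 4.77, percentile 77.4 ± 5.27) and −21.9 kb in an intron of Ift52 (11.5 ± 2.48). At +28.2 kb the libraries ranged from 12.5 in HPC7-6 to 26.5 in HPC7-4. Neither held GATAA. The promoter of Ift52, a gene of transport in the cilium, stood at −37.3 kb (55.2 ± 6.89), a Mybl2 intron OCR near an inner transcript start at +7.2 kb (9.06 ± 1.63), and an OCR near the start of Gtsf1l at +35.2 kb (7.59 ± 1.73). OCRs covered 19.7% of the Mybl2 gene (85.6th percentile).

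Genes that work with the MYB proteins were open at their promoters as a rule. A promoter OCR was present in every library for all 12 coactivators and modifiers of MYB, whose median promoter percentile was 95.3. The highest were Pim1 (99.1), a kinase of the cytokine response, and Fbxw7 (98.5), a ubiquitin ligase subunit, and the lowest were Crebbp (90.9), the acetyltransferase CBP that MYB recruits, and the kinase gene Hipk2 (90.8). All 13 genes of the MuvB complex and the cell cycle partners of MYBL2 had one too, with a median of 95.1. Here Ccna2 (99.4), which encodes cyclin A2, and Lin52 (99.4), a MuvB subunit, were highest, and Foxm1 (91.4), the factor that joins MuvB after MYBL2, and Rbl1 (89.6), which encodes p107, were lowest. The share of protein-coding genes with such an OCR was 60.8%, and the median promoter percentile over all of them, with 0 for genes that had none, was 80.8. Over the 13341 genes with a promoter OCR in all libraries, the median fold enrichment was 76.9, and Myb, at 80.3, stood at percentile 93.4. The medians of both lists are therefore not read as above the usual level of promoters with an OCR.

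Of 15 factors described as acting on Myb, 14 had a promoter OCR in all libraries (median percentile 94.6). Lyl1 (99.9) and Runx1 (98.7), factors of blood progenitors, were highest, and Gata1 (83.0), the erythroid GATA factor, was the lowest of those with a peak. Hoxa9, a homeobox gene of progenitors and leukemia, had no promoter peak in any library. Of 15 genes described as targets of MYB in blood cells, 14 had one in all libraries (median 92.9). Ccnb1 (97.1), which encodes cyclin B1, and Gata3 (96.4), a T cell regulator, were highest, and Gfi1 (59.6), a repressor of progenitors, was the lowest with a peak. Cd4, the T helper cell coreceptor, had no promoter peak in any library. Over all protein-coding genes, 60.8% had a promoter OCR in all libraries, and the counts of these lists are given as a description. Myb, near the middle of the promoters with an OCR in all libraries, stood at percentile 93.4. The medians of these lists are therefore not read as above the usual level of such promoters.

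Once each library's median promoter was taken off, the SD over libraries on the log2 scale was 0.0936 for Myb, 0.120 for Mybl1 and 0.108 for Mybl2. These SDs were not ranked among those of other promoters. The deviations of the 3 genes were not alike. Over the 7 libraries Pearson's r was −0.198 between Myb and Mybl1, 0.186 between Myb and Mybl2 and 0.407 between Mybl1 and Mybl2. Among 13340 other genes, the deviations most like those of Myb were at Klre1 (r = 0.988), 4930568D16Rik (0.970) and P2ry10 (0.969). Those most like Mybl1 were at Zwint (0.991), Rtn4 (0.984) and Gtdc1 (0.978), and those most like Mybl2 at Aplp2 (0.991) and at Rpl36al and Mgat2 (0.983 each, with the same promoter peak). Each r rests on 7 libraries, which differ in depth and culture batch for all genes at once. With Myb, Mybl1 and Mybl2, 91, 231 and 51 genes had r above 0.9, and these values are given as a description only.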

How the data were processed

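Bulk ATAC-seq of HPC7 was deposited as 7 MACS2 peak lists, 1 per library, after alignment to mm10 with BWA (the submitters' notes give no versions). Each deposited peak has a fold enrichment (the linear ratio of reads at its summit to 1 background per library), −log10 values of p and q, a score made from q, and a summit offset. The authors applied no normalization between libraries, so comparisons were made within a library, as log2 ratios or percentiles of fold enrichment. Fold enrichments were whole multiples of a step per library (100% within 0.05 of a step), from which summit reads and backgrounds were recovered. The precision of each value is the SD over 7 libraries.

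Peaks overlapping by at least 1 bp were merged into OCRs. Promoters were 3 kb on either side of any GENCODE M21 transcript start. Comparisons within libraries used exact two-sided sign-flip permutation tests (128 sign patterns) at a threshold of 0.05, with scripts tested on simulated data (Python 3.11.15, pandas 2.3.3, NumPy 2.4.6, SciPy 1.17.1). For each pair of lists, at most 0.301% of the intervals of the shorter list had the same start and end in the other. Peaks that only overlap are not counted in this share.

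The genes, windows, gene lists and motifs were chosen with earlier results of these data known. OCRs named were all at the members' own promoters, the 10 outside promoters in all libraries with the highest mean percentile around Myb and up to 3 around each paralog. From each gene list, genes without a promoter peak and the 2 highest and 2 lowest by promoter percentile were named, with neighbouring genes and the 3 genes most like each member. The degenerate letters used for the CTCF consensus, the E2F letters and the other OCRs named were settled after the values were seen. Alternatives were −log10 q of at least 5, lists of equal length (84593 peaks), other promoter, window and merging distances, other intensity measures and leaving out each library. Peak scores were not used. The result of 1 list of marker genes is not reported here.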

Additional observations from a re-analysis of the deposited data

Results flagged for a closer look

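The reads at the promoter summits of HPC7-1 stood far above those of the other 6 libraries. At Myb they were 2023, against 685 in the next library (HPC7-4). At Mybl1 they were 4026 against 1747, and at Mybl2 3119 against 1307, again with HPC7-4 next. The gap to the next library, as a share of the whole range, was 0.788 at Myb, 0.713 at Mybl1 and 0.729 at Mybl2. Among 32 measures compared over the libraries these 3 were set apart, and chance sets apart about 1 in 20. The background of HPC7-1 was 20.4 reads against 4.44 to 7.45 elsewhere, and its fold enrichments, 94.7 at Myb, 188 at Mybl1 and 146 at Mybl2, lay within the range of the other libraries.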

How the results depend on the processing

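Over 77 values recomputed under other settings, 71 kept their direction and their side of the threshold or stayed close to the count given. The 3 promoter differences kept both with percentiles, −log10 p, promoters of 1 kb, summed promoter peaks and each library left out. Part of the 71 was fixed in advance. Each tested difference had the same sign in every library, so leaving out a library could change neither its sign nor its call. Promoters of 1 kb gave the same values as those of 3 kb and so add no separate check. The lower density of the gap than of the Ahi1 side lost its call with a −log10 q of at least 5 (−0.867, exact p = 0.266) and with lists of equal length (−0.285, exact p = 0.75), and turned to 0.857 (exact p = 0.344) with 100 kb on each side. The higher percentile of distal peaks in the gap lost its call with a −log10 q of at least 5 (7.70, exact p = 0.0625). With lists of equal length the Myb window held 60 OCRs in place of 91, and 51.7% of them were in all libraries in place of 36.3%, since fewer peaks of the longer lists entered. The cause of the other changes was not tested. Leaving out each library gave 85 to 92 OCRs (merging can part when a library is left out), a share of 35.9% to 42.9%, a density difference of −2.83 to −1.83 and a percentile difference of 9.18 to 12, with an exact p of 0.0312 at most, the smallest that 6 libraries allow. Of the 91 OCRs, HPC7-1 (background 20.4 reads) covered 81, HPC7-8 (5.87) 73, HPC7-4 (7.45) 61 and HPC7-7 (5.87) 58, and the part of depth in which weak OCRs were called was not tested. The tests over libraries were already paired within a library, and the labels give 1 group, so no further pairing was fitted.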
